A study of Homo sapiens with 11 samples.

Results

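The genes described here are 8 sensors and adaptors of double-stranded RNA, taken by symbol from a total RNA table of HCT116, a human cell line from a colorectal carcinoma. They are DDX58 (RIG-I), IFIH1 (MDA5), DHX58 (LGP2), TLR3, TRIM25, MAVS, TICAM1 (TRIF) and TBK1, which is 8 of the 58699 genes in the table, and all 8 were found and tested by the authors. The cells were transfected with an siRNA to luciferase (siLuc, the control) or to Staufen1 (siStau1), and were given DMSO or the nucleoside decitabine (DAC, 500 nM for 5 days per the labels), an inhibitor of DNA methyltransferases. Each siRNA was combined with DMSO and with DAC, which makes 4 groups of 2 libraries of the same line, so that every group had been transfected with some siRNA and none was left untransfected.

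The table gives 1 FPKM value (fragments scaled to transcript length and library size) per gene and group, not per library. No spread between replicates can therefore be given here, the depth behind each value is unknown, and the only test over replicates is the one in the authors' deposited table, where a gene counts as called at a q-value under 0.05. Nothing in the labels says whether the 2 libraries of a group came from separate cultures, so those q-values may measure technical spread only. Log2 ratios are of FPKM with 0.1 added to each group, DAC over DMSO or siStau1 over siLuc. In bulk RNA, fewer cells that express a gene and less RNA per cell cannot be told apart.

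RIG-I and MDA5 are helicases that detect double-stranded RNA in the cytosol, RIG-I mainly short ends with a triphosphate and MDA5 mainly long duplexes. Both signal through MAVS, an adaptor on the mitochondrial membrane, while TLR3 detects double-stranded RNA in endosomes and signals through TICAM1. The 2 routes meet at kinases such as TBK1, which phosphorylates IRF3 and leads to interferon, and interferon in turn raises several of the sensors in many cell types.

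By level, TRIM25 was the highest of the 8 in all 4 groups, from 82.9 to 156 FPKM, and stood above 94.3% to 97.2% of protein-coding genes. TRIM25 is a ubiquitin ligase best known for acting on RIG-I. In siLuc DMSO the order below it was DDX58 (41.5 FPKM), IFIH1 (27.2), TBK1 (18.1), MAVS (8.27), DHX58 (3.78), TLR3 (3.32) and TICAM1 (1.59). The highest and lowest member in that group were 54.4-fold apart. In FPKM as deposited, the lowest member was DHX58 in siStau1 DMSO and TLR3 in both DAC groups. The place of TLR3 below TICAM1 there is lost when the DAC ratios are centred on transcripts of like GC content, as given with these genes.

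**Figure D1:**
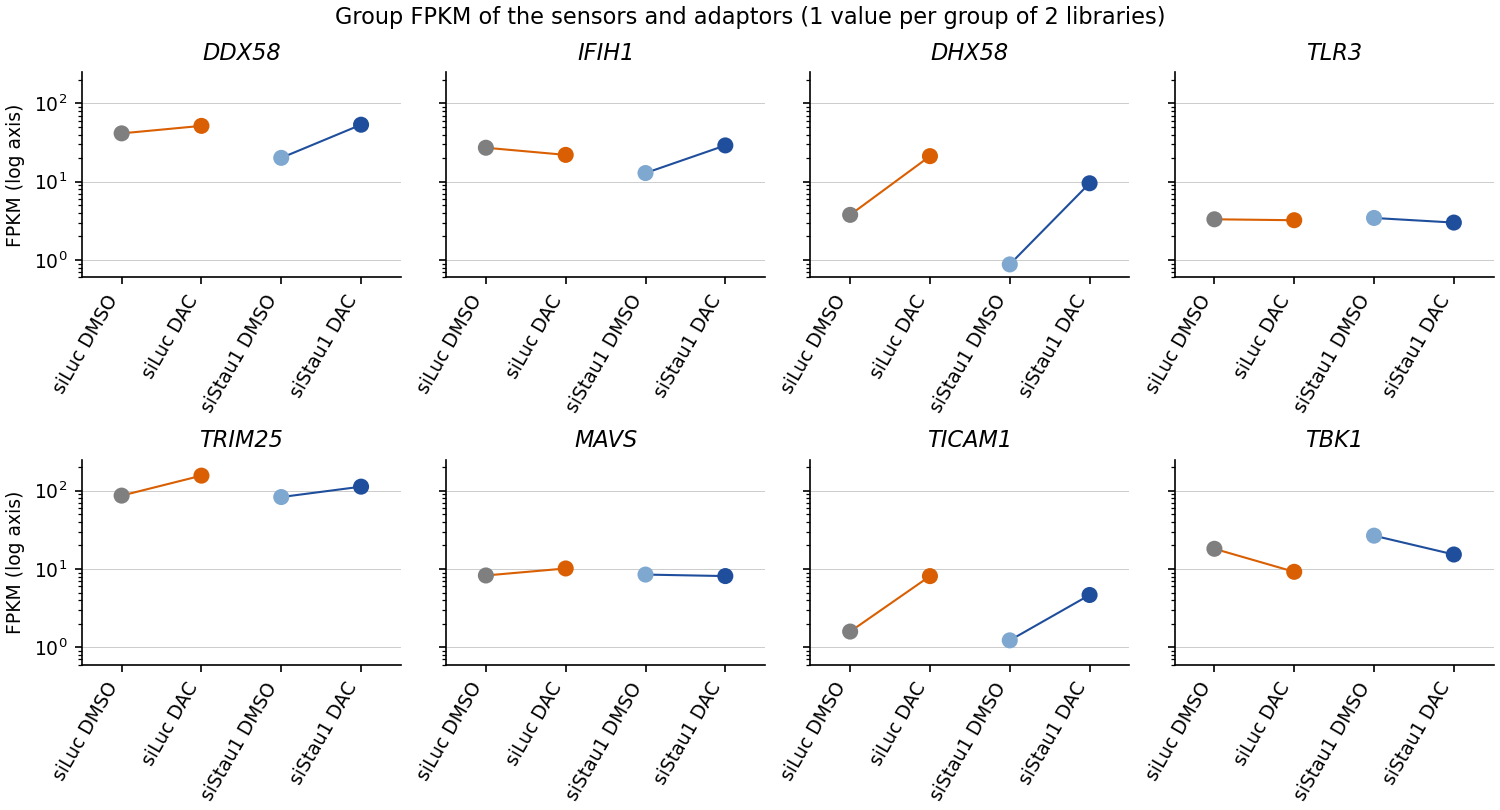
FPKM on a log axis (vertical) in the 4 groups (horizontal) for each of the 8 genes; a point is the single deposited value of a group of 2 libraries, so no error bar can be drawn, and lines join DMSO to DAC within an siRNA arm. For DHX58 and TICAM1 both DAC points lie above both DMSO points, DDX58 and IFIH1 are lowest in siStau1 DMSO, and the points of TLR3 and MAVS span 1.15-fold and 1.25-fold.

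Promoters of 7 of the 8 members were found in RefSeq (GRCh38.p14); DHX58 was not matched. The 5 printed here are the 4 that hold an interferon-type motif and that of TICAM1, which rose with DAC in siLuc and holds none. Each runs from 250 bases before the transcription start to 10 bases after it, 5′ to 3′ on the gene's strand. Capitals mark matches, on either strand, to the core of the interferon-stimulated response element (GAAA and GAAA with any 2 bases between) or to the same pair of GAAA with any 1 base between.
DDX58, chr9:32526187-32526446, minus strand: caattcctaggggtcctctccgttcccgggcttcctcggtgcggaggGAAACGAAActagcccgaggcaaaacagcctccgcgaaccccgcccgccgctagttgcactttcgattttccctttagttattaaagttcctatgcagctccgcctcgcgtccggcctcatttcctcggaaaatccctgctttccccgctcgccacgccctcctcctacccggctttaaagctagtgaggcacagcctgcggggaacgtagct
IFIH1, chr2:162318675-162318934, minus strand: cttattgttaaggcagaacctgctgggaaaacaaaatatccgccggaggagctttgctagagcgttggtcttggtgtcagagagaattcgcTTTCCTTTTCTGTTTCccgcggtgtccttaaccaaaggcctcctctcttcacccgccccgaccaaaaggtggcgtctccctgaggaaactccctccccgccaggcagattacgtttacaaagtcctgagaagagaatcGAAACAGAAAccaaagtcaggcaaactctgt
TLR3, chr4:186068906-186069165, plus strand: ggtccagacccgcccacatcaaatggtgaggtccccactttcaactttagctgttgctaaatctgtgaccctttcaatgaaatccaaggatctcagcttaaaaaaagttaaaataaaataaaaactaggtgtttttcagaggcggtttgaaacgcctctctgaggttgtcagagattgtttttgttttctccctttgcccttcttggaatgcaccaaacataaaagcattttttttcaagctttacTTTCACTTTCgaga
TRIM25, chr17:56914040-56914299, minus strand: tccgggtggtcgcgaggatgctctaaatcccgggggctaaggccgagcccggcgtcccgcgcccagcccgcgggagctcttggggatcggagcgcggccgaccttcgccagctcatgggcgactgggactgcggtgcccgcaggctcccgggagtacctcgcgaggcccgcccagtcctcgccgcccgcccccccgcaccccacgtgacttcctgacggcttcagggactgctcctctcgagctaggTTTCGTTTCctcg
TICAM1, chr19:4831703-4831962, minus strand: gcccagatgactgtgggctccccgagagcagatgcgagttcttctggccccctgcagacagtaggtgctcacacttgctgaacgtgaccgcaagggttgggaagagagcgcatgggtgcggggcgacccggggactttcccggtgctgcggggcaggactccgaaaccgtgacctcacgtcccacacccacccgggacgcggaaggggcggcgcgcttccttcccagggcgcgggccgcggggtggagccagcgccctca

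IFIH1 holds 3 matches to the core, a pair that overlaps between positions −159 and −144 from the start and 1 at −21 to −12. TLR3 holds 1, at −4 to 6 across the start. The core occurs in 3.57% of 35116 RefSeq promoters of 300 bases. The spacing with 1 base, searched for after the sequences had been seen, occurs in 3.12% of them, in DDX58 at −203 to −195 and in TRIM25 at −3 to 6. In the 300-base windows, CpG dinucleotides number 27 in DDX58, 12 in IFIH1, 5 in TLR3, 37 in TRIM25, 34 in MAVS, 30 in TICAM1 and 35 in TBK1, against a median of 14 over all promoters. Of the 2 promoters with the core, that of IFIH1 belongs to a gene called in 1 of the 6 pairs of groups in the authors' deposited table and that of TLR3 to a gene called in none. Methylation of these promoters was not analysed here.

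**Figure D2:**
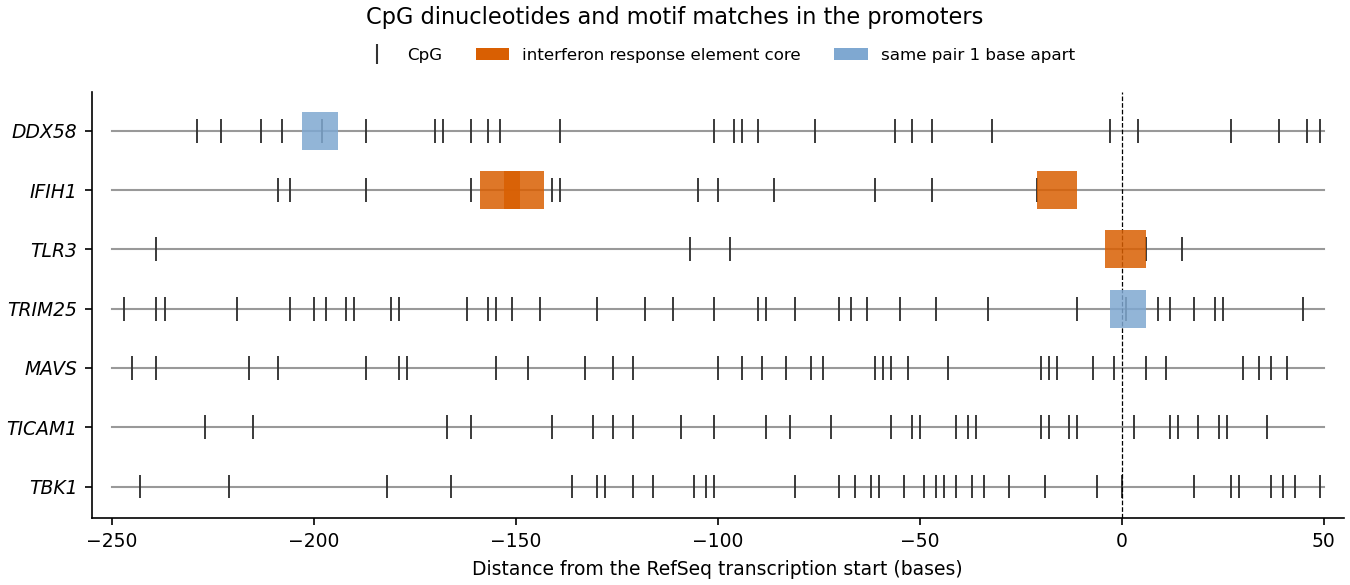
Map of 7 promoters from 250 bases before to 50 bases after the RefSeq start (horizontal axis, distance in bases); ticks are CpG dinucleotides, orange boxes the interferon response element core and blue boxes the same pair 1 base apart. The IFIH1 and TLR3 windows hold 12 and 5 CpG, and the other windows 27 to 37.

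The groups were checked against their labels. STAU1 had 35.5 and 33.7 FPKM in the siLuc groups with DMSO and DAC, and 30.0 and 27.1 in the siStau1 groups, and neither difference was called in the authors' deposited table (q-values of 0.767 and 0.685). All 5 epithelial markers examined were at 14.3 FPKM or more in every group. Of 8 markers of immune, endothelial, fibroblast and muscle cells, 4 were under 1 FPKM in all groups. Their summed level was 5.07 and 2.36 FPKM in siLuc and siStau1 with DMSO and 34.4 and 20.3 FPKM with DAC, and all 8 were higher with DAC in both arms. PTPRC and COL1A2 were listed at 0 in both DMSO groups. These markers thus moved with DAC as several members did, and their part in the results was not tested. Summed FPKM of protein-coding genes lay between 544643 and 601205 in the 4 groups. Over all genes the sum was higher with DAC, at 1.13e+06 with DMSO and 1.79e+06 with DAC in siLuc. In siStau1 it was 967545 with DMSO and 1.49e+06 with DAC.

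A trend with base composition touches all comparisons. Across protein-coding genes at 1 FPKM or more in both groups of a comparison, the median log2 ratio for DAC in siLuc went from −0.95 in the lowest of 20 bins of transcript GC content to 1.20 in the highest, and for knockdown in DAC from 0.61 to −0.64. The members span much of this range. The longest transcript of TLR3 has 37.6% GC, TBK1 39.3%, DDX58 40.5%, IFIH1 43.3%, TRIM25 51.1%, MAVS 52.1%, DHX58 58.2% and TICAM1 63.0%. Values called GC-centred have the median of the gene's own bin subtracted, and they are descriptions with no test. The part of GC content in the members' differences was not tested.

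**Figure D3:**
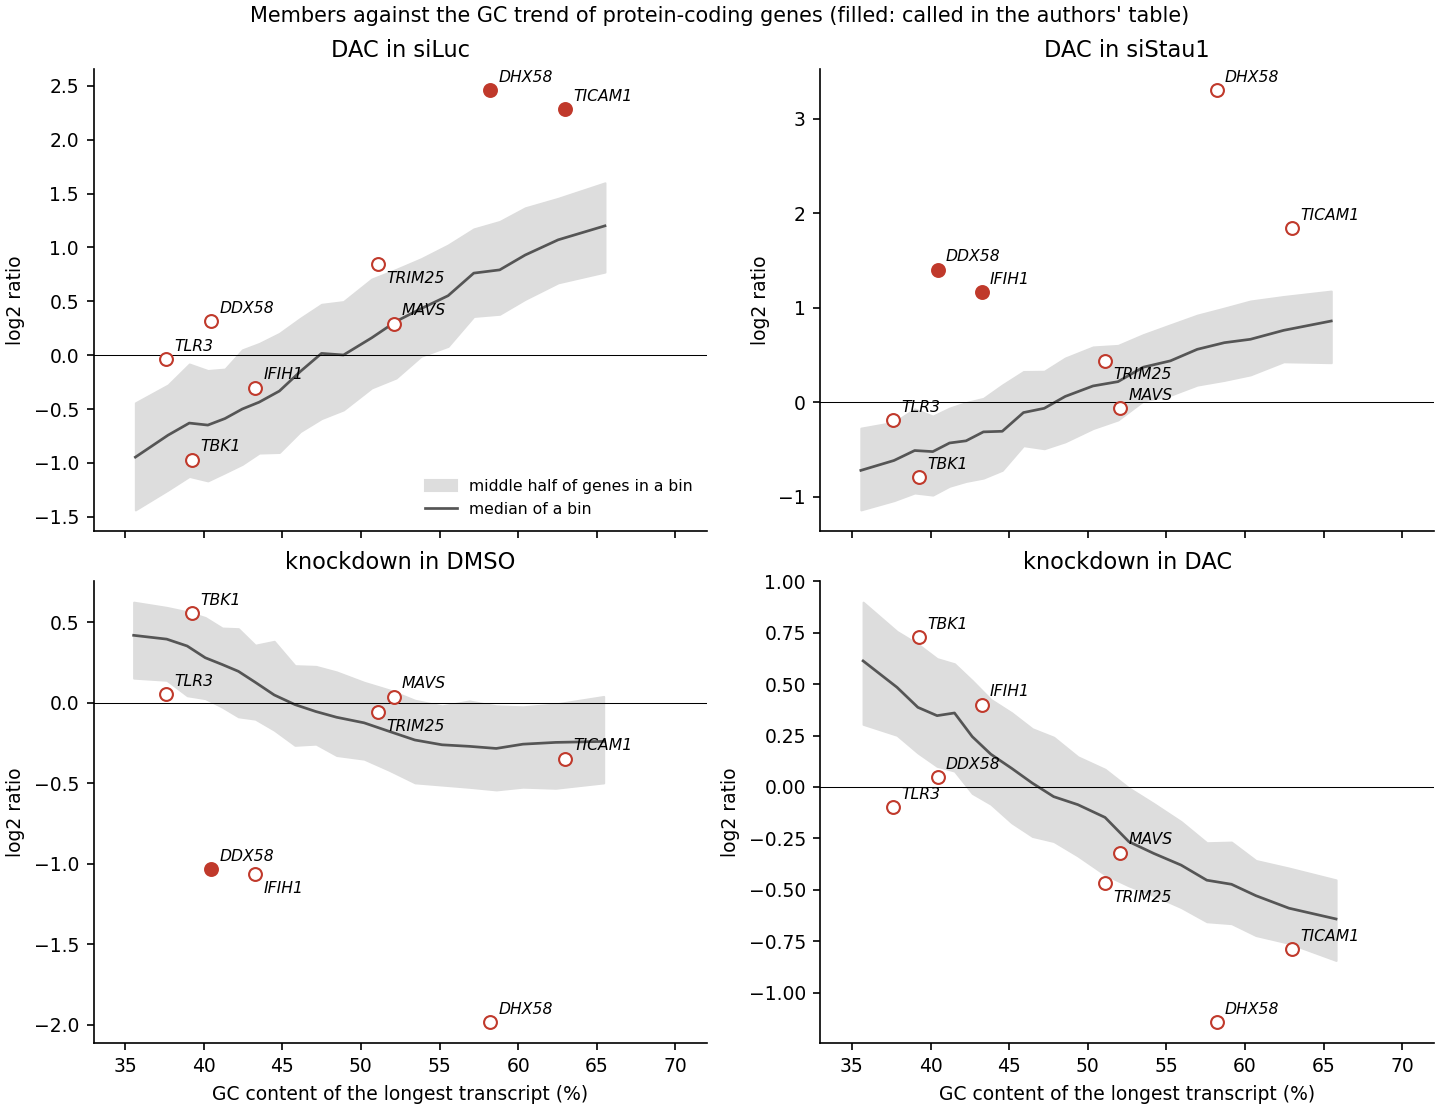
Log2 ratio (vertical axis) against GC content of the longest transcript in percent (horizontal axis) in 4 comparisons; the line is the median and the grey band the interquartile range of protein-coding genes in each of 20 GC bins, and circles are the 8 members, filled where called in the authors' deposited table. DDX58 and IFIH1 lie above the band for DAC in siStau1 and below it for knockdown in DMSO, while TBK1 lies inside the band in the 2 DAC panels.

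Counted over the list in the authors' deposited table, DAC in siLuc called 2 of 8 members, DHX58 and TICAM1, both higher. Of all 17504 genes tested there, 13.5% were called, 8.71% higher and 4.78% lower. DAC in siStau1 called 2 of 8, DDX58 and IFIH1, both higher, where 7.46% of 16979 were called, 4.56% higher and 2.89% lower. Knockdown in DMSO called 1 of 8, DDX58, lower, where 0.799% of 15893 were called, 0.333% higher and 0.466% lower. Knockdown in DAC called 0 of 8 by Cuffdiff, where 0.904% of 17263 were called, 0.434% higher and 0.469% lower. At an unadjusted p under 0.05, in the same order, 3, 5, 2 and 1 of 8 members passed in the authors' deposited table, against 28.9%, 19.0%, 4.30% and 6.95% of all genes tested. Median log2 ratios of the 8 were 0.31, 0.80, −0.20 and −0.21, beside 0.23, 0.11, −0.02 and −0.14 over all tested genes. GC-centred, the median of the 8 for DAC in siLuc was 0.69, beside 0.10 over all tested genes, and in the other 3 comparisons it was 0.75, −0.22 and −0.25, beside 0.04, 0.00 and −0.03. The DAC comparison in siStau1 and the knockdown comparison in DMSO share the siStau1 DMSO group, so the lower DDX58 in the one and the higher DDX58 in the other rest on the same value. In the pairs across both factors, siLuc DAC against siStau1 DMSO called 4 of 8 in the authors' deposited table, against 16.7% of all genes tested. DDX58, DHX58 and TICAM1 were higher there and TBK1 lower. For siStau1 DAC against siLuc DMSO, 0 of 8 were called by Cuffdiff, against 4.98% of all genes tested. At an unadjusted p under 0.05, 2 of 8 (DHX58 and TICAM1) passed in that pair in the authors' deposited table. The share of all genes tested that passed this unadjusted limit in the pair was not computed, so the 2 of 8 has no background beside it.

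The cytosolic helicases come first. DHX58 (ENSG00000108771.12, chromosome 17, 42101404 to 42112733, GRCh38) encodes LGP2, which lacks the signalling domains of the other 2 helicases and modulates them. In siLuc cells it had 3.78 FPKM with DMSO and 21.2 with DAC, and in siStau1 cells 0.881 and 9.56. Both DAC groups were thus above both DMSO groups, and each siStau1 group was below its siLuc counterpart. With DAC it rose 5.62-fold in siLuc, a log2 ratio of 2.46 that was called in the authors' deposited table (q = 0.0118). The 10.9-fold difference in siStau1 was not called (q-value 0.140 in the authors' deposited table), and its log2 ratio was 3.30, or 2.49 with a pseudocount of 1. GC-centred, the log2 ratios were 1.67 and 2.67 in siLuc and siStau1. The siStau1 group stood 4.29-fold under the siLuc group with DMSO and 2.22-fold under it with DAC, neither called in the authors' deposited table (q = 0.400 and 0.120). In the order of its 4 levels no group was called against its neighbour, whereas the lowest and the highest, siStau1 DMSO and siLuc DAC, differed 24.1-fold and were called in the authors' deposited table (q = 0.0464).

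DDX58 (ENSG00000107201.9, chromosome 9, 32455705 to 32526324) encodes RIG-I. Its level with siLuc was 41.5 FPKM under DMSO and 51.7 under DAC, against 20.2 and 53.5 with siStau1. In FPKM as deposited a single group, siStau1 DMSO, was low, and the other 3 lay within 1.29-fold of each other. That closeness of the 3 does not hold under GC centring, as the log2 ratio for DAC in siLuc given below shows. It fell 2.05-fold with knockdown in DMSO, a log2 ratio of −1.03 (q = 0.0279 in the authors' deposited table). That call rests on the adjustment over all 6 comparisons, since the p-value of 0.0017 in the authors' deposited table gave 0.284 when adjusted within the comparison. It rose 2.65-fold with DAC in siStau1, a log2 ratio of 1.40 at 0.00162, the smallest q-value in the authors' deposited table. In siLuc the log2 ratio for DAC was 0.32 (q-value 0.652 in the authors' deposited table) and 0.97 when GC-centred, and for knockdown in DAC it was 0.05 (q = 0.957 there) and turned to −0.30 when GC-centred.

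IFIH1 (ENSG00000115267.6, chromosome 2, 162267079 to 162318703) encodes MDA5. The siLuc groups had 27.2 FPKM (DMSO) and 22.0 (DAC) and the siStau1 groups 12.9 and 29.1, so that siStau1 DMSO was again the low group. With DAC in siStau1 it rose 2.25-fold, a log2 ratio of 1.17 (q = 0.0266 in the authors' deposited table). With knockdown in DMSO its log2 ratio of −1.07 missed the threshold (q = 0.0540 in the authors' deposited table). Of 57 protein-coding genes within 1.5-fold of its mean level whose log2 ratio there was at least as large in either direction, 15.8% were called. In siLuc the log2 ratio for DAC was −0.30 (q-value 0.720 in the authors' deposited table) and turned to 0.13 when GC-centred. In the siStau1 arm the GC-centred log2 ratio for DAC was 1.92 for DDX58 and 1.48 for IFIH1. With knockdown in DAC the log2 ratio of IFIH1 was 0.40 (q = 0.595 in the authors' deposited table). GC-centred, the log2 ratio for knockdown in DMSO was −1.31 for DDX58 and −1.19 for IFIH1, and 0.575% and 0.912% of protein-coding genes lay lower on that scale.

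Since FPKM is per length, the 3 helicases can be set against each other. Their summed level was 72.4 FPKM with DMSO and 94.9 with DAC under siLuc, and 34.0 and 92.1 under siStau1. DHX58 made up 5.22% of that sum in siLuc DMSO and 22.4% in siLuc DAC, and 2.59% and 10.4% in siStau1 with DMSO and DAC. IFIH1 stood 7.19-fold above DHX58 in siLuc DMSO and 1.04-fold above it in siLuc DAC, and 14.7-fold and 3.04-fold above it in siStau1 with DMSO and DAC. Carried from DMSO with the GC-centred DAC ratios, an alternative added after seeing the data, IFIH1 would stand 2.43-fold above DHX58 in siLuc and 5.81-fold in siStau1. In FPKM as deposited, DDX58 held between 54.4% and 59.4% of the sum in every group. The shares of the sum were not computed with GC-centred ratios. The share of DHX58 in deposited FPKM was thus higher with DAC in both arms, as a description of 1 value per group with no test.

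Taking the DAC log2 ratio of the siStau1 arm and subtracting that of the siLuc arm gave 1.08 for DDX58, 1.47 for IFIH1 and 0.84 for DHX58. It was above that of 97.7%, 99.4% and 94.7% of protein-coding genes. The other 5 members ranged from −0.44 (TICAM1) to 0.17 (TBK1). GC-centred, the 3 helicases had 0.96, 1.34 and 1.00. This difference was not tested, and it is the same quantity as the knockdown log2 ratio in DAC minus that in DMSO, so the low values in siStau1 DMSO and the higher DAC ratios there are not separate observations.

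The endosomal route was represented by TLR3 and TICAM1, whose levels differed in course. TICAM1 (ENSG00000127666.9, chromosome 19, 4815932 to 4831704), the TLR3 adaptor, had 1.59 FPKM with DMSO and 8.11 with DAC in siLuc cells, and 1.23 and 4.66 in siStau1 cells. Both DAC groups were above both DMSO groups. It rose 5.11-fold with DAC in siLuc, a log2 ratio of 2.28 (q = 0.00415 in the authors' deposited table). In siStau1 it was 3.79-fold higher, a log2 ratio of 1.84 that missed the threshold (q = 0.0720 in the authors' deposited table). TICAM1 is the most GC-rich member, and GC-centred its log2 ratios were 1.21 and 1.08, above 94.4% and 95.4% of protein-coding genes on that scale. Knockdown gave log2 ratios of −0.35 in DMSO and −0.79 in DAC (q-values of 0.842 and 0.295 in the authors' deposited table). GC-centred, they were −0.10 and −0.20.

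TLR3 (ENSG00000164342.12, chromosome 4, 186069152 to 186088069), the endosomal receptor, had 3.32 FPKM with DMSO and 3.23 with DAC under siLuc, and 3.45 and 3.01 under siStau1. Its highest and lowest groups were 1.15-fold apart, the narrowest range among the 8 members, and q-values in the authors' deposited table were 0.914 or more in all 6 pairs of groups. GC-centred, its log2 ratios for DAC turned from −0.04 to 0.70 in siLuc and from −0.19 to 0.43 in siStau1, and for knockdown in DMSO from 0.05 to −0.34, while for knockdown in DAC it went from −0.10 to −0.58. TLR3 stood 2.09-fold and 2.81-fold above its adaptor in siLuc and siStau1 with DMSO. With DAC, in FPKM as deposited, TICAM1 stood 2.51-fold and 1.55-fold above TLR3. The 2 genes lie at opposite ends of the GC range, and this order does not hold under GC centring: carried from DMSO with the GC-centred DAC ratios, an alternative added after seeing the data, TLR3 would stand 1.42-fold and 1.70-fold above TICAM1.

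Of the signalling members, MAVS (ENSG00000088888.17, chromosome 20, 3846799 to 3876123) spanned a 1.25-fold range. It had 8.27 FPKM with DMSO and 10.2 with DAC in siLuc cells and 8.49 and 8.12 in siStau1 cells, and its DAC log2 ratio in siLuc went from 0.29 to −0.02 when GC-centred. In siStau1 the DAC log2 ratio was −0.06, and that for knockdown was 0.04 under DMSO and −0.32 under DAC. Its q-values in the authors' deposited table were 0.649 or more in all 6 pairs of groups, which does not show that its levels are equal. TRIM25 (ENSG00000121060.17, chromosome 17, 56836387 to 56914080) had 86.5 FPKM with DMSO and 156 with DAC under siLuc and 82.9 and 113 under siStau1, and both DAC groups were above both DMSO groups. Its log2 ratio for DAC was 0.85 in siLuc and 0.44 in siStau1, neither called (q-values of 0.514 and 0.828 in the authors' deposited table). For knockdown it was −0.06 in DMSO and −0.47 in DAC (q-values of 0.978 and 0.746 in the authors' deposited table), and the first turned to 0.12 when GC-centred. Of 250 protein-coding genes of like level with a log2 ratio for DAC in siLuc at least as large in either direction, 57.2% were called. The annotated span of TRIM25 overlaps 6 other genes, of which DGKE on the opposite strand was the highest, at 0.940 to 1.74 FPKM, and whether reads were counted by strand is not given in the sources used here.

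TBK1 (ENSG00000183735.9, chromosome 12, 64451880 to 64502108), the kinase on which both routes converge, was the only member that was lower with DAC in both arms by more than 1.5-fold. With siLuc its level was 18.1 FPKM under DMSO and 9.21 under DAC, and with siStau1 26.6 and 15.3. Each siStau1 group was above its siLuc counterpart and each DAC group below its DMSO counterpart. The log2 ratio for DAC was −0.97 in siLuc and −0.80 in siStau1, with q-values of 0.122 and 0.118 in the authors' deposited table, and for knockdown it was 0.55 in DMSO and 0.73 in DAC (q = 0.375 and 0.311 there). GC-centred, these 4 values shrank to −0.34, −0.28, 0.20 and 0.34. In the order of levels the extremes, siLuc DAC and siStau1 DMSO, were 2.89-fold apart and called in the authors' deposited table (q = 0.00632), and the other 5 pairs of groups were not. The antisense gene AC135279.3, which overlaps TBK1, was at 0.472 FPKM or less.

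**Figure D4:**
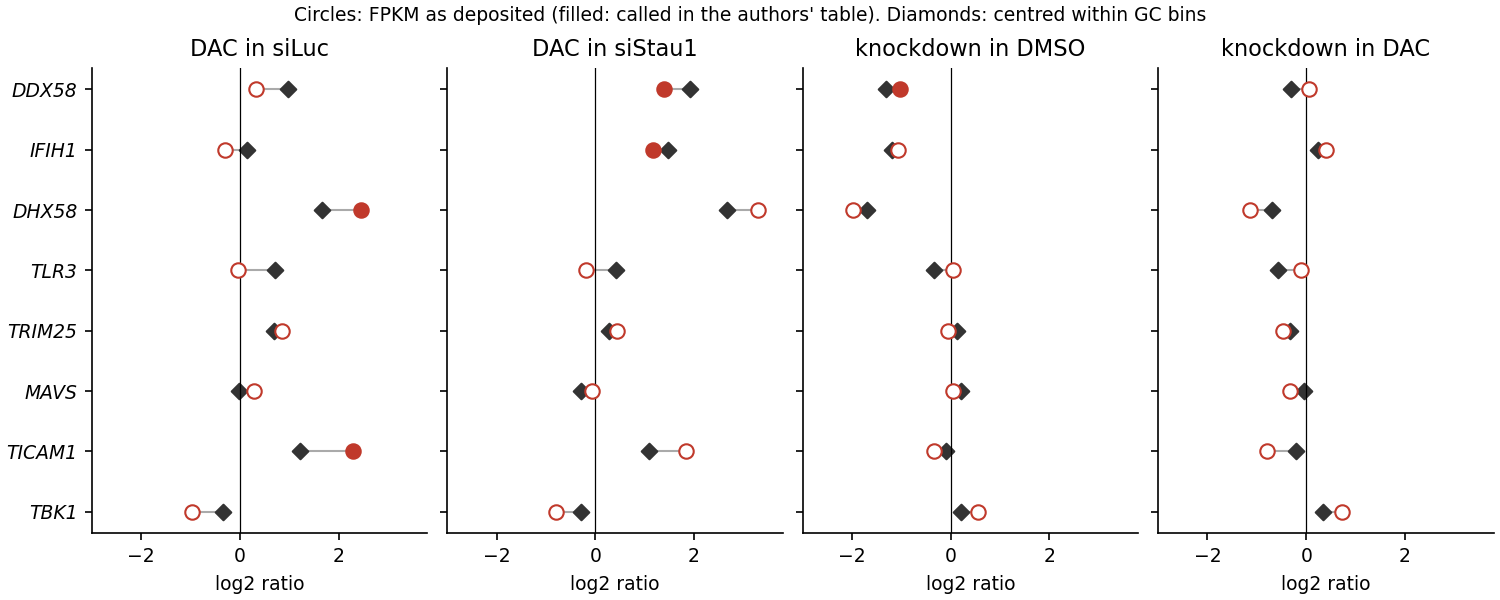
Log2 ratio (horizontal axis) of the 8 members in 4 comparisons; circles are FPKM as deposited, filled where called in the authors' deposited table, and diamonds the same value centred within GC bins. Calls fall on DHX58 and TICAM1 for DAC in siLuc, on DDX58 and IFIH1 for DAC in siStau1 and on DDX58 for knockdown in DMSO.

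The kinases and transcription factors downstream of the adaptors were given by a list of 17 genes, all tested. For DAC in siLuc 4 of them rose and 1 fell in the authors' deposited table, where 8.71% and 4.78% of all tested genes did. IRF7, the interferon regulatory factor that is itself raised by interferon, went from 11.8 to 78.5 FPKM (q-value 0.00162 in the authors' deposited table). IRF3, the direct target of TBK1, went from 18.8 to 65.3 FPKM, the adaptor TRADD from 3.34 to 16.1 FPKM and the NF-kB subunit RELA from 9.85 to 28.3 FPKM, each with the same q-value there. TANK, which binds TBK1 and TRAF3, fell from 71.0 to 16.3 FPKM (q-value 0.0272 in the authors' deposited table). GC-centred, the log2 ratio for DAC in siLuc went from 2.72 to 1.52 for IRF7 and from 1.79 to 1.00 for IRF3. It went from 2.24 to 1.04 for TRADD, from 1.51 to 0.75 for RELA and from −2.12 to −1.37 for TANK. In siStau1 IRF7 alone of the 17 was called, from 6.11 to 32.9 FPKM (q = 0.0332 in the authors' deposited table). It was also the only 1 called for knockdown in DAC, where it fell (q = 0.00825 there). Of all genes tested, 4.56% were called higher with DAC in siStau1 and 0.469% lower with knockdown in DAC. Knockdown in DMSO called 0 of the 17, where 0.799% of all genes tested were called. Adjusted within its own comparison, that knockdown call of IRF7 reached 0.189. Medians of the list were 0.88 and 0.56 for DAC in siLuc and siStau1 on the log2 scale, beside 0.23 and 0.11 over all tested genes. GC-centred, they were 0.52 and 0.17, beside 0.10 and 0.04.

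Among 13 co-sensors and positive regulators, all tested, DAC called 2 higher and 1 lower in siLuc and 3 higher in siStau1 in the authors' deposited table, and knockdown called 3 lower in DMSO and 2 lower in DAC. Of all genes tested, DAC called 13.5% in siLuc and 7.46% in siStau1 in either direction, and knockdown called 0.466% lower in DMSO and 0.469% lower in DAC. With DAC 9 of the 13 were lower in siLuc and 7 in siStau1, called or not. Medians of the list for DAC were −0.20 and −0.40 on the log2 scale, beside 0.23 and 0.11 over all tested genes. GC-centred, they were 0.21 and 0.01, beside 0.10 and 0.04. OASL, a ubiquitin-like protein that binds RIG-I, had 51.2 FPKM with DMSO and 239 with DAC under siLuc and 7.20 and 84.0 under siStau1, and was called in all 4 comparisons of the authors' deposited table (q = 0.00162 each). ZC3HAV1, the CpG-binding antiviral protein ZAP, had 48.4, 108, 19.3 and 44.9 FPKM in the same order and was called in all 4, with q-values from 0.00732 to 0.0393 in the authors' deposited table. The helicase DDX60 had 25.1, 19.7, 10.04 and 22.9 FPKM, lowest in siStau1 DMSO as DDX58 and IFIH1 were. In the authors' deposited table DDX60 was called for knockdown in DMSO (q = 0.0134) and for DAC in siStau1 (q = 0.0291). The helicase DHX9 fell with DAC in siLuc from 145 to 70.4 FPKM (q = 0.0134 in the authors' deposited table). Of all these knockdown calls, OASL in DMSO alone stayed under 0.05 when adjusted within its own comparison, at 0.0274, while in DAC it reached 0.0719.

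Of 12 negative regulators, all tested, TNFAIP3 (A20), a ubiquitin-editing enzyme that dampens these routes, rose with DAC, from 2.07 to 7.04 FPKM under siLuc and 1.35 to 5.03 FPKM under siStau1, with q-values of 0.0413 and 0.0464 in the authors' deposited table. Its partner TAX1BP1 fell from 38.5 to 15.8 FPKM with DAC in siLuc (q = 0.00917 in the authors' deposited table), and under DAC it was higher with knockdown, at 38.2 FPKM (q = 0.0101 there). Adjusted within its own comparison, that knockdown call of TAX1BP1 reached 0.216. The other 10 were not called in any of the 4 comparisons in the authors' deposited table. DAC thus called 1 higher and 1 lower of the 12 in siLuc and 1 higher in siStau1, where 13.5% and 7.46% of all genes tested were called. Knockdown called 0 in DMSO and 1 higher in DAC, where 0.799% and 0.904% were called. Medians on the log2 scale were 0.31 and 0.18 for DAC in siLuc and siStau1 and −0.12 and −0.13 for knockdown in DMSO and DAC. Over all tested genes they were 0.23, 0.11, −0.02 and −0.14 in the same order. GC-centred, the medians of the list were 0.19, 0.22, −0.38 and −0.15, beside 0.10, 0.04, 0.00 and −0.03 over all tested genes.

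**Figure D5:**
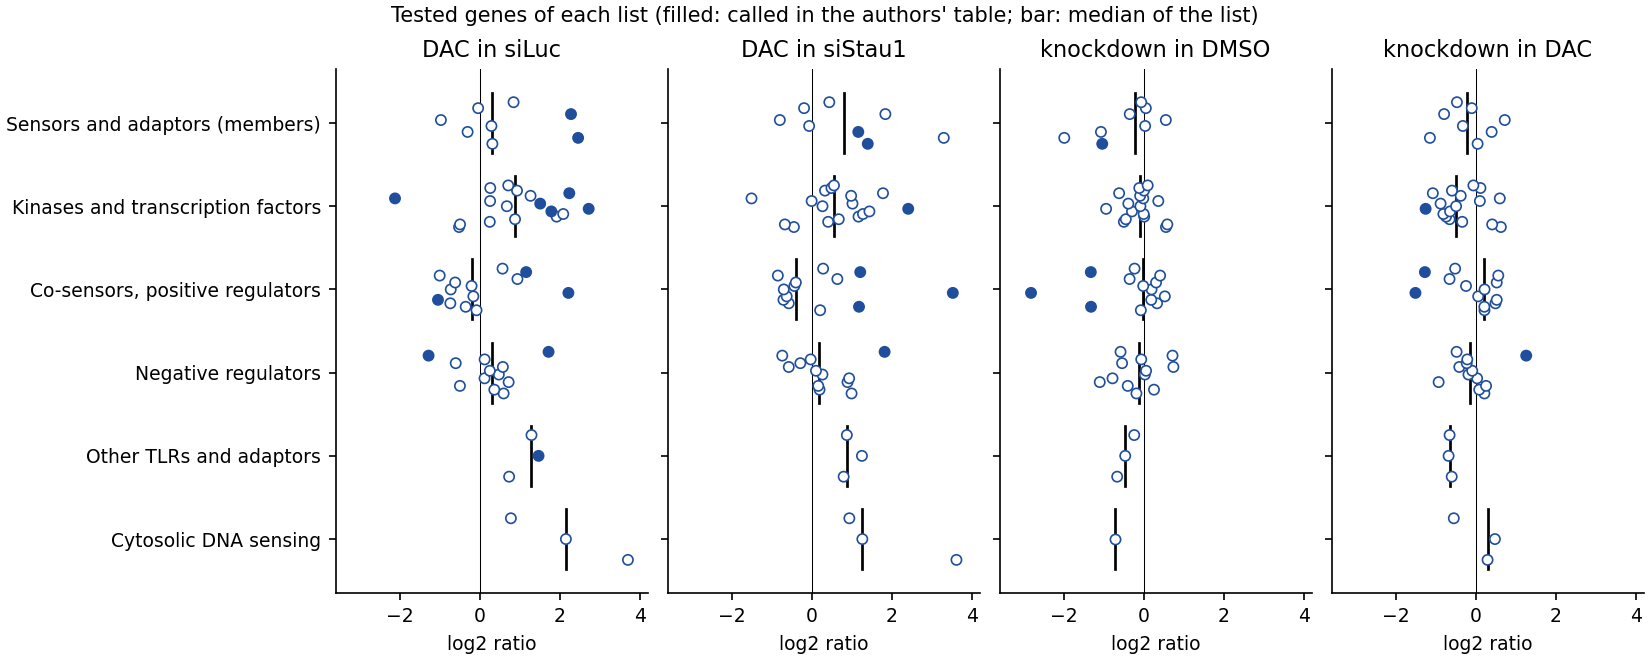
Log2 ratio (horizontal axis) of the tested genes of 6 lists (rows) in 4 comparisons; a circle is a gene, filled where called in the authors' deposited table, and the bar is the median of the tested genes of a list. Calls for knockdown fall on DDX58 among the members and on OASL, ZC3HAV1, DDX60, IRF7 and TAX1BP1 among the other lists.

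Genes with the most similar course over the 4 groups were sought for the 5 members that spanned at least 1 on the log2 scale, among 11142 other protein-coding genes, by the root mean square difference of centred log2 values over 4 points. TBK1 had 1452 genes within 0.25, led by TOPORS, GXYLT2 and MAP3K7 (0.012 to 0.020), so its course was a common one. DDX58 had 384, led by SLC27A3, USP4 and CGN. TICAM1 had 193, led by NR4A1, POLR2A and S100A11, and IFIH1 164, led by ATXN7, ANKMY1 and IFT46. DHX58 had 2, CFB, a complement factor, at 0.21, and IGFBP6 at 0.22, with TRANK1 next at 0.25. The limit of 0.25 was the same for courses that span 1.17 (IFIH1) to 4.44 (DHX58) on the log2 scale. The counts are therefore not directly comparable between members. CFB had 3.23 FPKM with DMSO and 12.5 with DAC under siLuc, and 0.522 and 6.03 under siStau1.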

How the data were processed

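Total RNA of 8 HCT116 libraries in 4 groups of 2 was analysed; J2 repeat tables were not used here. The authors deposited FPKM values, 1 per gene and group, with their test score, p-value and q-value for 6 comparisons in Cuffdiff layout per the file headers. The submitters' processing notes name Cuffdiff 2.2.1, HISAT2 2.1.0 and hg38 without roles. The deposited q-value equals a Benjamini-Hochberg adjustment over 102180 tests (largest gap 5.3e-07). The smallest deposited p-value is 5e-05. One gene that is no member, ZNF468, had group values that differed between comparisons, and its first value was kept. All 58699 identifiers matched GENCODE release 29 (GRCh38), from which positions and transcript GC content come. Log2 ratios, 20 GC bins and the code for both, tested on simulated data, used Python 3.11.15, pandas 2.3.3 and numpy 2.4.6. Depth is unknown, so no interval was given. Alternatives were pseudocounts of 1 and 0.01, median, GC and protein-coding scaling, a minimum of 1 FPKM, a q-value limit of 0.01, adjustment within a comparison and unadjusted p. Named were all members, list genes called (at most 5 a list), overlapping genes and the 3 most similar courses. Members and lists were chosen with earlier results of these data known.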

Additional observations from a re-analysis of the deposited data

How the results depend on the processing

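Calls of members depended on the limit. With the q-value limit at 0.01, DAC called 1 member in the siLuc arm (TICAM1) and 1 in the siStau1 arm (DDX58), and knockdown in DMSO called 0. Adjusted within the comparison, knockdown in DMSO had 0. The shares of all tested genes called at these limits were not computed, so these counts have no background beside them. Unadjusted p under 0.05 in the authors' deposited table gave 3 of 8 members in the siLuc arm with DAC. The siStau1 arm with DAC had 5 of 8. Of all genes tested, 28.9% and 19.0% passed in these arms. Knockdown without DAC had 2 of 8, beside 4.30% of all genes tested. With DAC, knockdown had 1 of 8, beside 6.95%. Of 190 recomputed log2 ratios of members, 172 stayed within 1.5-fold with the same sign and 18 did not, 14 of these under GC centring, and the 30 under a minimum of 1 FPKM cannot differ by construction; none of the called values changed sign. The median log2 ratio of protein-coding genes was 0.13 for siLuc DAC against siStau1 DMSO and between −0.09 and 0.08 in the other 5 pairs of groups. No paired analysis was possible because the table holds 1 value per group, and for the same reason no library could be left out.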

Other observations

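Sensors of other nucleic acids were mostly low in these cells. TLR8 was listed at 0 in all 4 groups, and TLR7 and TLR9 were below 1 FPKM in each. The adaptor TICAM2, which is not itself a sensor, was also below 1 FPKM in each group. MYD88, the adaptor of most Toll-like receptors, rose with DAC under siLuc, from 4.68 to 13.2 FPKM (q = 0.0234 in the authors' deposited table). Of 4 genes of cytosolic DNA sensing, 3 were tested in each comparison but knockdown in DMSO, where 1 was. None was called in any of the 4 comparisons in the authors' deposited table by Cuffdiff, and 0 passed an unadjusted p under 0.05. Of all genes tested, DAC called 13.5% in siLuc and 7.46% in siStau1, and knockdown 0.799% in DMSO and 0.904% in DAC. In the same order, 28.9%, 19.0%, 4.30% and 6.95% passed the unadjusted limit. With so few genes tested, a count of 0 says little about them. CGAS, the sensor of cytosolic DNA, was listed at 0 in siLuc DMSO and had 1.20 FPKM with DAC there, and 0.0306 and 1.502 FPKM under siStau1 with DMSO and DAC. TMEM173 (STING), its adaptor, had 6.42 FPKM with DMSO and 11.1 with DAC under siLuc, and 3.89 and 7.56 under siStau1. The uncalled genes named here, TLR7, TLR8, TLR9, TICAM2, CGAS and TMEM173, were chosen after their values were seen.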
